A study of Mus musculus with 18 samples.

Results

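The folding chaperones of the endoplasmic reticulum (ER) were examined in mouse liver carrying a ribosomal mutation that raises translation errors. The group holds 10 genes, *Hspa5*, *Hsp90b1*, *Calr*, *Canx*, *Pdia3*, *Pdia4*, *Pdia6*, *P4hb*, *Hyou1* and *Sdf2l1*. They were chosen by name for their role in folding and found through their Ensembl identifiers among the 22524 genes counted. All 10 passed the filter on low counts, which left 13353 genes, and the lowest count of any of them in any liver was 206, for *Sdf2l1*. Liver RNA was sequenced from 10 A226Y mice and 8 wild-type (WT) mice, with 1 library per mouse. All were C57BL/6 females, 15 months old. According to the methods, the *Rps2* allele was made in embryonic stem cells of another strain and its line was backcrossed to C57BL/6. The A226Y mice carried a knock-in allele of *Rps2*, a gene for a protein of the small ribosomal subunit, in which alanine is replaced by tyrosine, and the mutant allele was switched on by removal of a *loxP*-flanked STOP cassette with CMV-Cre, a Cre transgene active in all tissues. The WT mice carried the Cre as well, without the altered allele. According to the methods, removal of the cassette was never complete, so each A226Y liver was a mosaic that also held cells with the silenced allele, and the counts do not tell these cells apart. The study asked whether mistranslation in this tissue goes along with an ER stress response.

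The ER is where secreted and membrane proteins fold, and hepatocytes, which export most plasma proteins, are rich in it. BiP, an HSP70 chaperone, binds exposed hydrophobic stretches of a new chain in a cycle driven by J-domain proteins and nucleotide exchange factors, while the lectins calnexin and calreticulin hold glycoproteins together with a thiol oxidoreductase, and protein disulfide isomerases form and reshuffle disulfide bonds. When unfolded chains accumulate, the sensors IRE1, ATF6 and PERK start the unfolded protein response (UPR), and ATF6 and XBP1 raise the transcription of most of these chaperone genes.

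A promoter element known for this control, the ER stress response element (ERSE), was looked for in the 300 bases around the start of each gene (250 before it and 50 after, RefSeq promoter windows of GRCm38.p6). The ERSE was searched on both strands as CCAAT and CCACG with 9 bases of any kind between them. It was found in 5 of the 9 chaperone genes that had a window and in 39 of all 32851 windows (0.119%). The matches are shown because they are the sequence that these promoters share. They are written 5′ to 3′ in the direction of the element, with the fixed CCAAT and CCACG parts in capitals and the spacer in lower case.
*Hspa5*, chr2:34772025-34772043, plus strand: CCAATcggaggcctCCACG
*Hsp90b1*, chr10:86705638-86705656, minus strand: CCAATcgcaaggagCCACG
*Hsp90b1*, chr10:86705533-86705551, plus strand: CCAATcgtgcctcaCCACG
*Calr*, chr8:84847075-84847093, plus strand: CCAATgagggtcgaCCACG
*Canx*, chr11:50325800-50325818, minus strand: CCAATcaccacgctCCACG
*Pdia6*, chr12:17266491-17266509, plus strand: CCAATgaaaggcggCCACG
Counted along the gene, the first base of the match lay 65 bases before the RefSeq start site in *Hspa5* and 98 before it in *Pdia6*. In *Canx* it lay 145 bases upstream. *Hsp90b1* held a pair of matches, 212 and 107 bases upstream, of which the nearer one pointed against the gene, as did the match of *Calr*, 162 bases upstream. The RefSeq start sites are not always those of the GENCODE gene spans given below: that of *Hspa5* lies 120 bases inside the span, so its match does too, and those of *Hsp90b1*, *Pdia6* and *Calr* lie 65, 44 and 3 bases inside it. These letters were not in the windows of *Pdia3*, *Pdia4*, *P4hb* and *Sdf2l1*, and *Hyou1* was not searched. Of the other elements searched, ERSE-II, which is ATTGG and CCACG with 1 base of any kind between them, was in 12 windows (0.0365%) and TGACGTGG, the core of an XBP1 and ATF6 site, in 222 (0.676%), none of them a window of a chaperone gene. A match is a run of letters and does not show that a factor bound there.

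Total counts ranged from 23850565 to 62126131 in the A226Y livers and from 25869192 to 34918732 in WT. *Rps2*, measured over both alleles, was lower in every A226Y liver than in every WT liver (46.9 to 83.0 against 104 to 143 CPM, that is counts scaled to library size with the TMM method of edgeR). Between the genotypes 1910 genes passed an adjusted p of 0.05 (edgeR's quasi-likelihood test, Benjamini-Hochberg), which is 14.3% of those tested, and 1255 passed without the liver of WT mouse 14. Hepatocyte markers were abundant in all libraries, with *Alb*, which encodes albumin, at no less than 48000 CPM in A226Y and 66800 CPM in WT livers. Among 14 genes of pancreatic acinar cells, another secretory cell rich in ER, 2 passed the filter, and their sum was at most 8.03 CPM. The liver of A226Y mouse 29 stood apart in the sum of 17 tested acute phase genes, 65900 CPM against 13200 to 17900 CPM in the other A226Y livers. WT mouse 33 had the highest such sum among WT, 39000 CPM, and also the highest sums of plasma and B cell genes (1440 CPM) and erythroid genes (764 CPM). The mouse numbers used here are a numbered field of the sample titles, which do not say what it counts.

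None of the 10 chaperone genes passed the test between A226Y and WT mice. With edgeR, 0 of 10 had an adjusted p under 0.05 and 0 of 10 an unadjusted p under 0.05, against 14.3% (7.27% higher and 7.03% lower) and 29.6% of all tested genes. DESeq2 and limma-voom also called 0 of 10 after adjustment. The fitted log2 fold change (A226Y over WT) was above 0 for 9 of the 10, against 49.0% of all genes, and its median was 0.22, against −0.004 over all genes. Because these genes varied together from liver to liver, as described below, their signs are not separate observations. In a fit with 4 surrogate variables, which also called 0 of 10, the log2 fold change was 0.14 for *Hspa5*, 0.09 for *Hyou1*, 0.23 for *Sdf2l1*, 0.21 for *Pdia4* and 0.14 for *P4hb*, against 0.24, 0.30, 0.49, 0.05 and 0.04 without them. The groups overlapped for all 10, whereas 0.637% of all genes had groups that did not overlap. In whole tissue, a different share of a cell type and a different amount of RNA per cell cannot be told apart.

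**Figure D1:**
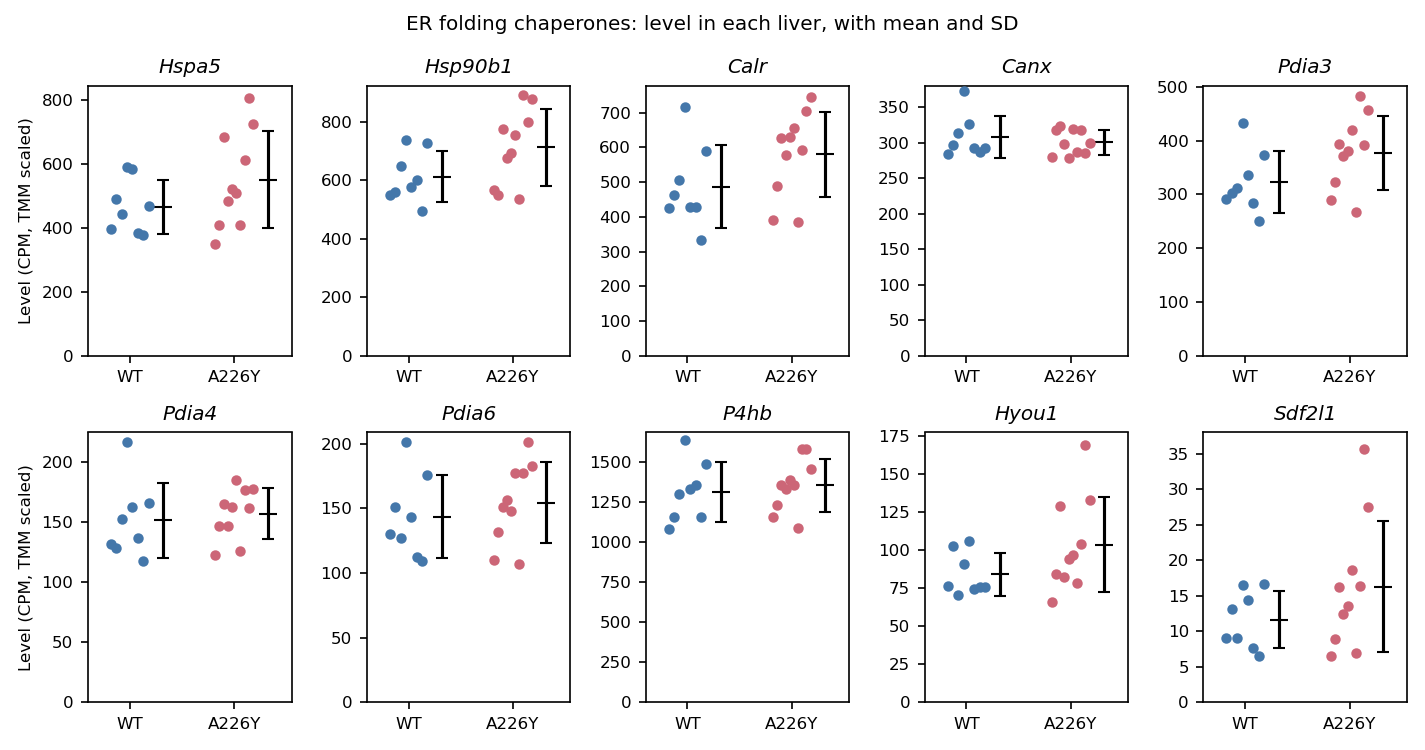
Level of each of the 10 chaperone genes in every liver, in CPM after TMM scaling, with a linear axis from 0 in each panel. Points are livers (8 WT in blue, 10 A226Y in red), and the bars beside them give the mean and SD. The genotypes overlap in all 10 panels, and the widest scatter relative to the mean is that of *Sdf2l1* in A226Y, from 6.57 to 35.7 CPM.

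The BiP system comprised 3 of the genes. *Hspa5* (chromosome 2, 34771970 to 34777547, GRCm38) encodes BiP. Its level ran from 350 to 807 CPM in the A226Y livers with a median of 517 CPM, and from 379 to 591 CPM in WT with a median of 455 CPM. In 4 of the 10 A226Y livers *Hspa5* was above the highest WT liver and in 1 it was below the lowest, so the A226Y values extended past WT at both ends. The means were 551 ± 151 CPM (SD, n = 10) and 467 ± 84.8 CPM (SD, n = 8), a log2 fold change of 0.24 (SE 0.15, 95% interval −0.08 to 0.56, edgeR adjusted p = 0.298, two-sided exact permutation p = 0.207). *Hyou1* (chromosome 9, 44379490 to 44392369) encodes a large HSP70 relative that exchanges the nucleotide of BiP. It was measured at 66.2 to 169 CPM in A226Y (median 95.2) and at 70.4 to 106 CPM in WT (median 76.2). The highest liver was that of mouse 29, and 3 A226Y livers lay above all WT livers. Its log2 fold change was 0.30 (SE 0.15, 95% interval −0.02 to 0.62, edgeR adjusted p = 0.195, exact permutation p = 0.127). *Sdf2l1* (chromosome 16, 17130138 to 17132383), whose product works with the J-domain protein ERdj3 to keep BiP clients from aggregating, was the least counted, with 6.57 to 35.7 CPM in A226Y (median 15.0) and 6.58 to 16.7 CPM in WT (median 11.1). Its lowest livers were level between the genotypes and 3 A226Y livers exceeded the highest WT liver. The log2 fold change of 0.49 was the largest of the 10 and the least precise (SE 0.29, 95% interval −0.13 to 1.10, edgeR adjusted p = 0.275, exact permutation p = 0.274).

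A226Y mouse 29, the liver with the high acute phase sum, was the highest of its genotype for all 3 of these genes and for *Pdia6*. Without it the log2 fold change was 0.16 for *Hspa5* (adjusted p = 0.430), 0.19 for *Hyou1* (adjusted p = 0.299) and 0.28 for *Sdf2l1* (adjusted p = 0.467, edgeR throughout), and 0.06 for *Pdia6*. Without WT mouse 33, the highest WT liver for *Sdf2l1*, the log2 fold change was 0.58 for *Sdf2l1* (adjusted p = 0.217), 0.24 for *Hspa5* (adjusted p = 0.335) and 0.28 for *Hyou1* (adjusted p = 0.256, edgeR throughout), and the median of the 10 genes was 0.25. Without both livers that median was 0.17.

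*Hsp90b1* (chromosome 10, 86690209 to 86705509) encodes GRP94, the HSP90 of the ER, which takes over partly folded clients. It ranged from 537 to 890 CPM in A226Y (median 725) and from 495 to 737 CPM in WT (median 588). In 5 of 10 A226Y livers, the most for any of the 10 genes, it was above the highest WT liver, and none was below the lowest. The log2 fold change was 0.22 (SE 0.11, 95% interval −0.01 to 0.45, edgeR adjusted p = 0.196), and the exact permutation p of 0.0895 was the smallest of the 10.

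The lectin cycle was represented by calreticulin, calnexin and their partner oxidoreductase ERp57. *Calr* (chromosome 8, 84841850 to 84846934), which encodes the soluble lectin, was found at 386 to 744 CPM in A226Y (median 610) and 335 to 717 CPM in WT (median 446). Although 8 of 10 A226Y livers were above the WT mean, only 1 exceeded WT mouse 14, and the log2 fold change was 0.25 (SE 0.15, 95% interval −0.05 to 0.56, edgeR adjusted p = 0.260). *Pdia3* (chromosome 2, 121413775 to 121438687), the gene of ERp57, was at 267 to 483 CPM in A226Y (median 386) and 250 to 433 CPM in WT (median 308), with 2 A226Y livers above WT. Its log2 fold change was 0.22 (SE 0.12, 95% interval −0.02 to 0.47, edgeR adjusted p = 0.212, exact permutation p = 0.0956). Its exons share 18 bases with the antisense gene *Catsper2*, which had at most 345 counts in any liver.

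*Canx* (chromosome 11, 50293961 to 50325673), the gene of the membrane lectin calnexin, was the steadiest of the 10. It lay between 278 and 323 CPM in A226Y (median 299) and between 284 and 372 CPM in WT (median 295). Its coefficient of variation was 5.86% in A226Y and 9.54% in WT, and no A226Y liver exceeded the highest WT liver. The log2 fold change was −0.03 (SE 0.06, 95% interval −0.16 to 0.09, edgeR adjusted p = 0.749), the narrowest interval of the 10, and it was 0.01 without WT mouse 14.

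The remaining disulfide isomerases had log2 fold changes between 0.04 and 0.11. *P4hb* (chromosome 11, 120560298 to 120573253), the gene of the founding protein disulfide isomerase, was the most abundant at 1090 to 1580 CPM in A226Y (median 1360) and 1080 to 1640 CPM in WT (median 1310). Every A226Y liver fell within the WT range, with a log2 fold change of 0.04 (SE 0.09, 95% interval −0.15 to 0.23, edgeR adjusted p = 0.793). With 1 mouse left out at a time it ran from 0.01 (without WT mouse 4) to 0.09 (without WT mouse 14). *Pdia4* (chromosome 6, 47796141 to 47813430), which encodes ERp72, an isomerase found in complexes with BiP, spanned 123 to 185 CPM in A226Y (median 163) and 118 to 217 CPM in WT (median 145). Here too all A226Y livers lay within the WT range, and the log2 fold change was 0.05 (SE 0.11, 95% interval −0.18 to 0.28, edgeR adjusted p = 0.799), or 0.14 without WT mouse 14 and 0.0 without WT mouse 28. *Pdia6* (chromosome 12, 17266545 to 17284770), another isomerase that binds BiP, was measured at 107 to 201 CPM in A226Y (median 153) and 109 to 201 CPM in WT (median 136). Its ranges nearly coincided, with a log2 fold change of 0.11 (SE 0.13, 95% interval −0.18 to 0.39, edgeR adjusted p = 0.640), which became 0.19 without WT mouse 14 and 0.06 without WT mouse 24 or 28.

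**Figure D2:**
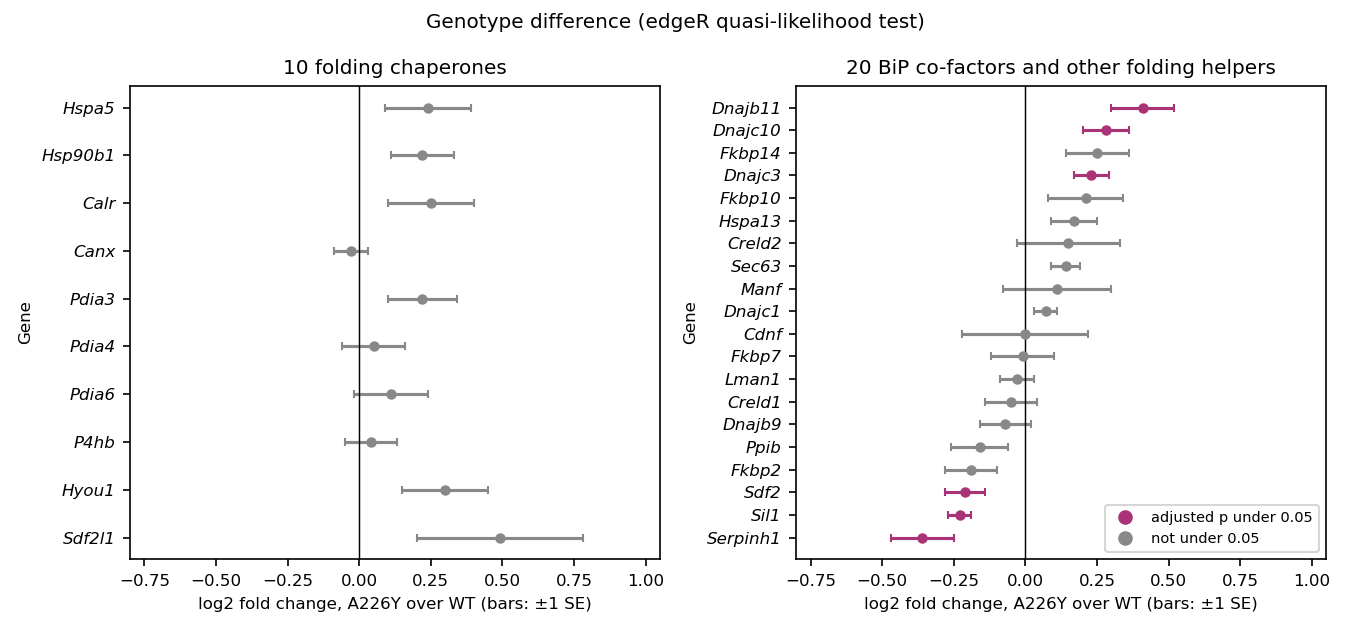
Log2 fold change (A226Y over WT) with its SE for the 10 chaperone genes (left) and for 20 co-factors of BiP and other folding helpers of the ER (right), from edgeR's quasi-likelihood test. Genes with an adjusted p under 0.05 are purple and the others grey. None of the 10 on the left passes, and of the 20 on the right 3 pass above 0 and 3 below 0.

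Levels between genes were compared as CPM per kilobase of exon, with all annotated exons of a gene counted. In WT the order was *P4hb* (459), *Calr* (169), *Hsp90b1* (152), *Hspa5* (110), *Pdia3* (103), *Canx* (65.6), *Pdia4* (63.3), *Pdia6* (38.3), *Hyou1* (11.6) and *Sdf2l1* (10.5). *P4hb* was above *Calr* in 8 of 8 WT and 10 of 10 A226Y livers. Some neighbours changed places between livers: *Hspa5* was above *Pdia3* in 7 of 8 WT but 5 of 10 A226Y livers, *Canx* above *Pdia4* in 6 of 8 and 5 of 10, *Calr* above *Hsp90b1* in 6 of 8 and 8 of 10, and *Hyou1* above *Sdf2l1* in 6 of 8 and 6 of 10. All other neighbours kept this order in all 18 livers at the exon length used. That length was 3745 bases for *Pdia6* and 7230 for *Hyou1*, against 2175 and 4925 for their longest transcripts. For *Pdia4* (2399 bases) and *Sdf2l1* (1108 bases) the lengths were equal. The places of *Pdia6* and *Hyou1* beside these neighbours thus depend on the length chosen, and the order by transcript length was not computed. Summed over the 10 genes, the chaperones made up 0.330% to 0.514% of scaled counts in A226Y (median 0.440%) and 0.321% to 0.502% in WT (median 0.378%).

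The spread among livers of a genotype was larger than the difference between the genotypes. The sum of the 10 genes averaged 4310 ± 684 CPM over the 10 A226Y livers and 3900 ± 577 CPM over the 8 WT livers (mean ± SD). It came to 3297 CPM in A226Y mouse 22 and 5136 CPM in A226Y mouse 29, and to 3214 CPM in WT mouse 28 and 5016 CPM in WT mouse 14. WT mouse 14 was the highest WT liver for 8 of the 10 genes, and WT mouse 28 the lowest for 7. In A226Y, mouse 32 was among the 3 highest livers for 9 of 10 genes, while mouse 3 was among the 3 lowest for 10 and mouse 22 for 9. The extreme livers by this sum were in part those by the acute phase sum. A226Y mice 29 and 32 were the highest 2 and mice 3 and 22 the lowest 2 of their genotype on both, and in WT mice 14, 33 and 21 were the highest 3 and mouse 28 the lowest on both. A226Y mouse 23, the third highest by chaperones (4953 CPM), was the fourth lowest by acute phase genes (15400 CPM). The acute phase sum was 17900 CPM in A226Y mouse 32, next to the 65900 CPM of mouse 29, and 26000 CPM in WT mouse 14.

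**Figure D3:**
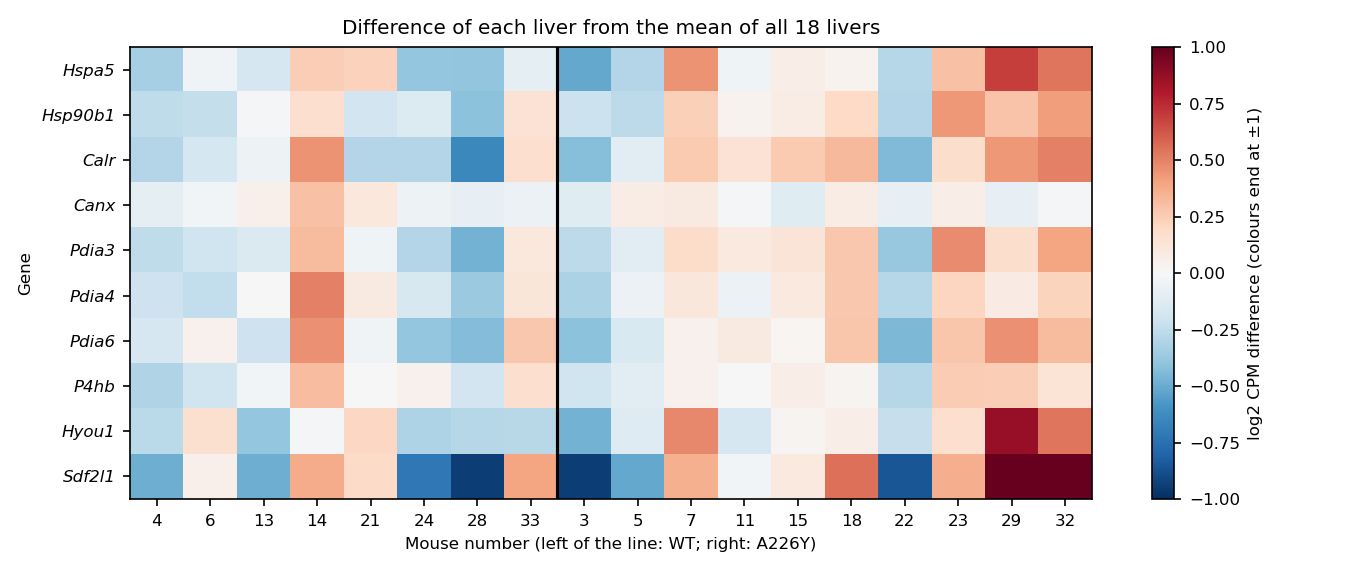
Difference of each gene from its mean over all 18 livers, in log2 CPM (red higher, blue lower, colours ending at 1 in either direction), with WT mice left and A226Y mice right of the line. Whole columns tend to share a colour (A226Y mice 29 and 32 and WT mouse 14 red, A226Y mice 3 and 22 and WT mouse 28 blue), while the row of *Canx* stays pale in A226Y.

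The highest A226Y liver exceeded the lowest 5.43 times for *Sdf2l1*, 2.55 times for *Hyou1* and 2.30 times for *Hspa5*, against 2.54, 1.51 and 1.56 times in WT. Whether livers of a genotype scattered more was tested on the mean absolute deviation of log2 CPM from the genotype median, with an exact permutation test over the 43758 divisions of the livers into 10 and 8. The deviation was 0.314 in A226Y and 0.204 in WT for *Hspa5* (exact permutation p = 0.231), 0.310 and 0.168 for *Hyou1* (exact permutation p = 0.215), and 0.610 and 0.455 for *Sdf2l1* (exact permutation p = 0.386). This test called 0 of the 10 genes after adjustment over all genes and 0 of the 10 without it. Over all tested genes it also called 0 after adjustment (0.0%) and 595 without (4.46%, and 1.66% as wider in A226Y), so a wider scatter of the chaperones in A226Y was not shown. The deviation was larger in A226Y for 6 of the 10 genes, against 51.9% of all genes, and with 1 mouse left out for 4 of them (without A226Y mouse 3 or 22) to 10 (without WT mouse 14).

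The levels of the chaperone genes varied together from liver to liver in both genotypes. Over the 45 pairs of genes, the median Pearson r of log2 CPM was 0.87 in A226Y (jackknife SE 0.06 over 10 livers) and 0.77 in WT (jackknife SE 0.16 over 8 livers). Pairs ranged from 0.18 to 0.97 in A226Y, 30 of them above 0.8, and from −0.07 to 0.96 in WT, 18 of them above 0.8. All values of a liver come from 1 library and share its scaling factor, and these coefficients are given as a description. Pairs among other genes were not examined. With *Hspa5* alone, the median r of the other 9 chaperone genes was 0.86 in A226Y and 0.78 in WT. That of all tested genes with *Hspa5* was 0.05 in A226Y and 0.0 in WT. Without WT mouse 14 the WT median fell to 0.63, and without A226Y mouse 29 the A226Y median stayed at 0.87.

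**Figure D4:**
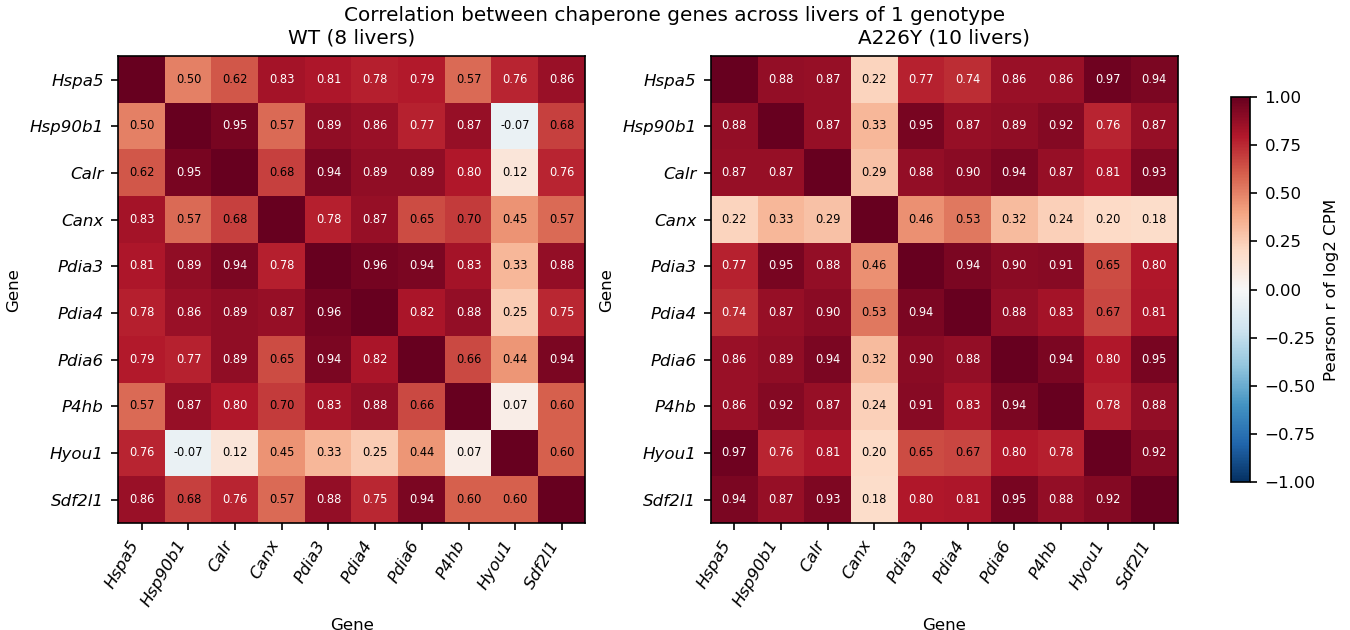
Pearson r of log2 CPM for each pair of chaperone genes across the 8 WT livers (left) and the 10 A226Y livers (right), with the value in each cell. Most cells are dark red. The pale row is *Hyou1* in WT (−0.07 to 0.76) and *Canx* in A226Y (0.18 to 0.53).

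*Canx* had the lowest median r in A226Y and *Hyou1* in WT, taken over the other 9 genes. No test was made of these medians between the genotypes. For *Canx* the median r was 0.29 in A226Y (0.18 to 0.53), against 0.68 in WT (0.45 to 0.87). For *Hyou1* it was 0.33 in WT (−0.07 with *Hsp90b1* to 0.76 with *Hspa5*), against 0.78 in A226Y (0.20 to 0.97). Without *Canx* and *Hyou1*, the remaining 28 pairs ran from 0.74 to 0.95 in A226Y and from 0.50 to 0.96 in WT. The tightest WT pairs were *Pdia3* with *Pdia4* (r = 0.96) and *Hsp90b1* with *Calr* (r = 0.95), followed at 0.94 by *Pdia3* with *Calr*, *Pdia3* with *Pdia6* and *Pdia6* with *Sdf2l1*. In A226Y the tightest pair was *Hspa5* with *Hyou1*, r = 0.97.

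*Hspa5*, the usual readout of ER load, was then taken as the anchor and every other tested gene was correlated with it inside each genotype, with a permutation p for each (100000 draws for the 10 A226Y livers, all 40320 orders for the 8 WT livers) adjusted over 13352 genes. In A226Y, 2 of the 9 other chaperone genes passed, against 0.412% of all genes with a positive r. They were *Hyou1* (Pearson r = 0.97, permutation p = 1e-05, the smallest the draws can give, adjusted p = 0.0223, and Spearman rho = 0.95, permutation p = 0.00013) and *Sdf2l1* (r = 0.94, permutation p = 0.00011, adjusted p = 0.0320, and rho = 0.90, permutation p = 0.0008). Leaving out mice 29 and 3, the livers farthest from the median of *Hspa5*, r was 0.95 and 0.88. Neither adjusted p stayed under 0.05 when mouse 5, 22, 29 or 32 alone was left out, since no gene at all passed then, although r stayed between 0.91 and 0.98. *Sdf2l1* also lost its call without mouse 3 or 11, and *Hyou1* without mouse 18. *Hsp90b1*, *Calr*, *Pdia6* and *P4hb* followed *Hspa5* with r between 0.86 and 0.88 (permutation p from 0.00074 to 0.0017, adjusted from 0.0561 to 0.0692), and *Pdia3* and *Pdia4* with r of 0.77 and 0.74. Without adjustment 8 of the 9 had a permutation p under 0.05 and a positive r, against 10.7% of all genes (10.1% had a negative r). *Canx* did not pass (r = 0.22, permutation p = 0.537, rho = 0.14), and r was 0.24 without mice 29 and 3.

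In WT the coefficients with *Hspa5* were 0.50 to 0.86, led by *Sdf2l1* (r = 0.86, exact permutation p = 0.0091) and *Canx* (r = 0.83, exact permutation p = 0.00533, rho = 0.79). After adjustment 0 of the 9 passed, and so did 0 of all genes (0.0%), the smallest adjusted p being 0.221. The smallest exact permutation p was 2.48e-05, the least that the 40320 orders of 8 livers can give. A gene alone at that p could not pass over 13352 genes, so the adjusted counts are not comparable between the genotypes. Without adjustment 6 of the 9 had an exact permutation p under 0.05, against 2.03% of all genes with a positive r. The values rest in part on WT mice 14 and 21, the farthest from the median, without which r ran from 0.26 for *P4hb* to 0.87 for *Sdf2l1* and was 0.50 for *Canx* and 0.57 for *Hyou1*. Without WT mouse 14 alone, r fell to 0.27 for *Hsp90b1* (from 0.50), 0.38 for *Calr* (from 0.62) and 0.31 for *P4hb* (from 0.57). The coefficient of no gene was shown to differ between the genotypes: in an exact permutation test of the genotype labels on centred values, 0 of all genes passed after adjustment (0.0%) and 8.70% without. For *Canx* that test gave p = 0.0999 (adjusted p = 0.641) and for *Hyou1* p = 0.0279 (adjusted p = 0.539, exact permutation test).

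**Figure D5:**
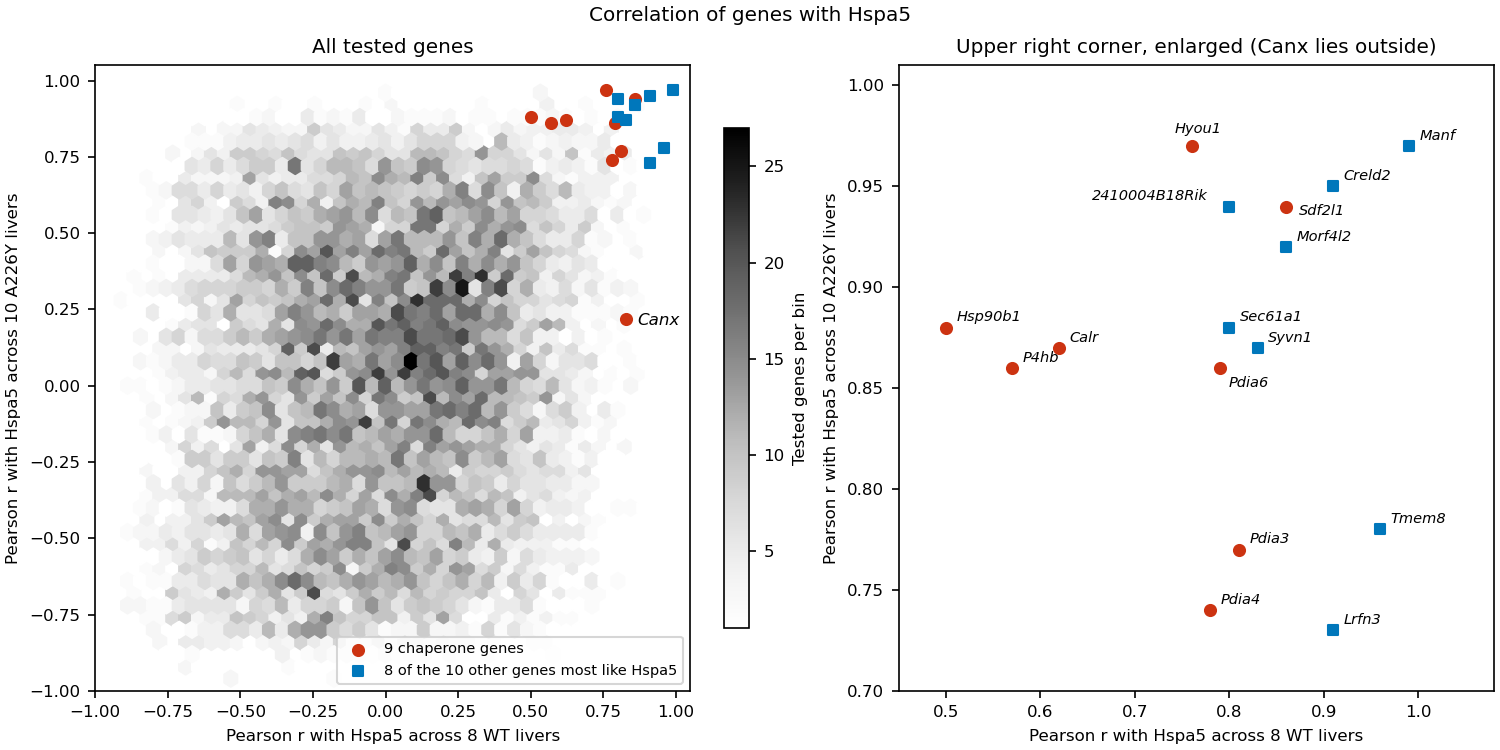
Pearson r with *Hspa5* across 8 WT livers (horizontal) and 10 A226Y livers (vertical). Left, all tested genes as grey bins with the 9 other chaperone genes as red circles and 8 of the 10 other genes most like *Hspa5* as blue squares. Right, the upper right corner enlarged. All chaperone genes but *Canx* (0.83 in WT, 0.22 in A226Y) lie at 0.50 or more in WT and 0.74 or more in A226Y, and *Manf* (0.99 and 0.97) is nearest the corner.

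Among the 10 genes whose pattern was most like that of *Hspa5*, ranked by the mean of its r in both genotypes among 11931 genes with at least 1 CPM on average, were *Manf*, *Creld2*, *Morf4l2*, *Tmem8*, *2410004B18Rik*, *Syvn1*, *Sec61a1* and *Lrfn3*, besides the chaperones themselves. *Manf* encodes a small ER protein that binds BiP. Its r was 0.97 in A226Y (permutation p = 1e-05, adjusted p = 0.0223) and 0.99 in WT (exact permutation p = 4.96e-05, adjusted p = 0.221). *Creld2*, an ER protein with oxidoreductase activity whose window also holds the ERSE, had r of 0.95 and 0.91. *Syvn1* encodes the HRD1 ubiquitin ligase of ER-associated degradation, with r of 0.87 and 0.83, the latter 0.37 without WT mice 14 and 21, and *Sec61a1* the channel by which chains enter the ER, with r of 0.88 and 0.80. The WT r of *2410004B18Rik*, 0.80, was 0.23 without WT mice 14 and 21, and the A226Y r of *Lrfn3*, 0.73, was 0.28 without A226Y mice 29 and 3. None of these 8 passed the test between genotypes, with log2 fold changes from −0.15 for *Tmem8* to 0.43 for *Lrfn3* and a smallest adjusted p of 0.0578, for *Morf4l2* (edgeR).

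Genes outside ER folding also followed *Hspa5*. *Rps2* had r = 0.83 in A226Y (permutation p = 0.00415, adjusted p = 0.0887), and 0.89 without A226Y mice 29 and 3. In WT its r was −0.46 (exact permutation p = 0.261), and −0.21 without WT mice 14 and 21. The difference between the genotypes had p = 0.0043 (adjusted p = 0.524, exact permutation test). The median r of 17 acute phase genes was 0.58 in A226Y and 0.47 in WT, 16 of 17 were positive in each genotype, and the median was 0.33 without A226Y mice 29 and 3 and 0.34 without WT mice 14 and 21. None of them passed after adjustment (lowest adjusted p = 0.0642 in A226Y and 0.97 in WT, permutation tests), while 10 had an unadjusted p under 0.05 in A226Y, 9 with a positive r and *Saa4* with r = −0.75 (permutation p = 0.0155), and 1 had in WT, beside 10.7% of all genes with a positive and 10.1% with a negative r in A226Y and 2.03% and 2.54% in WT. The WT count is near that share. That one was *Hp*, which encodes haptoglobin, with r = 0.74 in WT (exact permutation p = 0.0384) and 0.70 in A226Y (permutation p = 0.00929). Among genes of feeding, *Igfbp1*, a secreted binding protein of insulin-like growth factors that rises on fasting, had r = 0.94 in A226Y (permutation p = 1e-05, adjusted p = 0.0223, rho = 0.99, permutation p = 1e-05, r = 0.98 without mice 29 and 3) but 0.15 in WT (exact permutation p = 0.708). It was named, like *Hp*, *Saa4* and *Hlf*, after its value was seen. The median r of 12 fasting genes was 0.26 in A226Y and −0.26 in WT, and of 11 fed genes −0.57 and 0.26. Without the 2 farthest livers of each genotype it was 0.26 and −0.18 for the fasting genes and −0.64 and −0.05 for the fed genes, so the sign for the fed genes in WT rested on these livers. *Hlf*, a PAR bZIP factor under clock control, ran against *Hspa5* in A226Y (r = −0.85, permutation p = 0.00024, adjusted p = 0.0381, rho = −0.94, permutation p = 0.00025, r = −0.83 without mice 29 and 3) and had r = −0.09 in WT (exact permutation p = 0.815). The 10 clock genes of the *Dbp* and *Per* phase, *Hlf* among them, had a median r of −0.43 in A226Y and −0.41 in WT. Without the 2 farthest livers of each genotype these medians were 0.13 and 0.02. All 5 erythroid genes had r between 0.75 and 0.86 in A226Y (adjusted p from 0.0717 to 0.101, permutation tests) and between 0.56 and 0.71 without mice 29 and 3, against −0.37 to −0.06 in WT. These WT values turned positive, 0.05 to 0.16, without WT mice 14 and 21. The median of 10 endothelial genes was −0.59 in A226Y, and −0.72 without those 2 mice, and it was 0.33 in WT, or 0.26 without mice 14 and 21. For 9 Kupffer cell genes the median was 0.05 in A226Y and 0.27 in WT, but −0.62 in A226Y without mice 29 and 3 (−0.77 to −0.32) and −0.10 in WT without mice 14 and 21. For 11 hepatocyte genes it was −0.30 and −0.18, and it turned to 0.17 and 0.33 without those livers.

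The genes around the chaperones were taken from 6 lists of ER folding and quality control. Together the lists held 95 tested genes, of which 11 (11.6%) were higher and 8 (8.42%) lower, beside 7.27% and 7.03% of all tested genes. A list with 1 or 2 calls is near these shares. Of 20 co-factors of BiP and other folding helpers, 3 were higher and 3 lower in A226Y, and their median was 0.04 on the log2 scale. The 3 that rose, *Dnajb11*, *Dnajc10* and *Dnajc3*, encode J-domain proteins of BiP, whereas other J-domain genes of the list, named after their values were seen, did not pass, *Sec63* with 0.14 (adjusted p = 0.0568), *Dnajc1* with 0.07 (adjusted p = 0.298) and *Dnajb9* with −0.07 (adjusted p = 0.675, edgeR for all). *Dnajb11* (ERdj3) was at 64.4 to 112 CPM in A226Y (median 93.9) and 56.4 to 80.3 CPM in WT (median 67.8), a log2 fold change of 0.41 (SE 0.11, edgeR adjusted p = 0.0173). *Dnajc10* (ERdj5, a disulfide reductase) had a log2 fold change of 0.28 (SE 0.08, adjusted p = 0.0179, edgeR). *Dnajc3* (p58IPK, which also restrains PERK) had 0.23 (SE 0.06, adjusted p = 0.0253, edgeR), and its window holds the ERSE. The liver ranges of all 3 overlapped. Of those that fell, *Sil1* had the smallest p. It encodes a nucleotide exchange factor of BiP and was at 46.0 to 54.5 CPM in A226Y and 52.2 to 61.9 CPM in WT, a log2 fold change of −0.23 (SE 0.04, edgeR adjusted p = 0.00387). Chosen after their values were seen because they complete the count, *Serpinh1*, a collagen chaperone, had −0.36 (adjusted p = 0.0373) and *Sdf2*, the relative of *Sdf2l1*, −0.21 (adjusted p = 0.0435, edgeR for both). The log2 fold change of *Hspa5*, 0.24 with an SE of 0.15, was close to those of *Dnajc3* and *Dnajc10*, and its SE was larger. With 1 mouse left out at a time, 2 (without WT mouse 14 or 24) to 5 (without WT mouse 6) of the 20 co-factor genes were higher and 1 to 3 lower, and 1 was lower without A226Y mouse 3, 7, 11 or 32 or WT mouse 13, 14 or 24. In A226Y *Dnajb11* correlated with *Hspa5* at r = 0.93 (permutation p = 0.00017, adjusted p = 0.0359), whereas *Sil1* did not pass (r = −0.08, permutation p = 0.854).

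Among 16 other redox genes of the ER, 1 rose and 1 fell, with a median of −0.01. *Prdx4*, which encodes a peroxidase that uses hydrogen peroxide from disulfide formation, was at 50.8 to 68.3 CPM in A226Y and 68.7 to 84.9 CPM in WT. Its groups did not overlap, and its log2 fold change was −0.34 (SE 0.06, edgeR adjusted p = 0.00213). *Tmx4*, a membrane thioredoxin-related protein, rose by 0.22 (SE 0.06, edgeR adjusted p = 0.0215). Of 10 genes that trim or read N-glycans, *Edem3*, a mannosidase of degradation, rose by 0.30 (SE 0.06, adjusted p = 0.00384) and *Man1b1*, another mannosidase, changed by −0.23 (SE 0.06, adjusted p = 0.0155, edgeR for both). The median over these 10 was 0.02.

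Of 10 sensors and transducers of the UPR, 1 rose and none fell. It was *Mbtps2*, the site-2 protease that releases ATF6, with 0.38 (SE 0.09, edgeR adjusted p = 0.0107). The sensor genes themselves did not pass, with log2 fold changes of −0.02 for *Ern1* (IRE1, adjusted p = 0.915), 0.15 for *Atf6* (adjusted p = 0.216), 0.03 for *Eif2ak3* (PERK, adjusted p = 0.846) and −0.14 for *Xbp1* (adjusted p = 0.165, edgeR for all). Splicing of *Xbp1*, and the cleavage and phosphorylation by which these sensors act, cannot be read from gene counts. Of 24 genes of ER-associated degradation, 4 rose and 1 fell, with a median of 0.05. *Ube2j1*, a ubiquitin-conjugating enzyme, rose by 0.17 (adjusted p = 0.0191), and *Ufd1* and *Nploc4*, the partners of the p97 segregase, by 0.30 and 0.22 (adjusted p = 0.0220 for each). The ligase *Rnf5* had −0.24 (adjusted p = 0.0219), and the fourth that rose, named after its value was seen, was *Selenos* with 0.27 (adjusted p = 0.0238, edgeR for all 5).

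Of 15 genes of the PERK and ATF4 branch, 1 rose and 2 fell, with a median of 0.0. *Trib3*, a pseudokinase that feeds back on ATF4, had a log2 fold change of 0.82 (SE 0.27, adjusted p = 0.0476). *Chac1*, which degrades glutathione, had −1.10 (SE 0.31, adjusted p = 0.0234) and *Gadd45a*, a growth arrest gene, −0.77 (SE 0.20, adjusted p = 0.0142). *Atf4* (0.03, adjusted p = 0.822) and *Ddit3* (CHOP, −0.22, adjusted p = 0.306, edgeR for all 5) did not pass. None rose in 10 of the 18 fits with 1 mouse left out, 2 rose without A226Y mouse 29, and 1 fell without WT mouse 13 or 33. Most of the 19 calls in these 6 lists did not survive a fit with 4 surrogate variables, in which 248 genes passed over all and 2 of the 19 remained, *Prdx4* and *Dnajc10*. All 19 kept their sign in that fit. The log2 fold changes of *Trib3* (0.86), *Chac1* (−0.88), *Mbtps2* (0.31) and *Rnf5* (−0.23) stayed near those above although the calls were lost, whereas those of *Ufd1* (0.11), *Nploc4* (0.10), *Man1b1* (−0.11) and *Gadd45a* (−0.33) were less than 50% as large. Smaller too, but more than 50% as large, were among others *Dnajc3* (0.13), *Serpinh1* (−0.21), *Edem3* (0.19) and *Ube2j1* (0.11). An offset for GC content left 12 of the 19.

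Over all genes, 37 gene symbols had a window with the ERSE, and 18 of them were tested. Of these 2 were higher in A226Y and none lower, and the median log2 fold change was 0.20. Of the 13 that are not among the chaperones, the median was 0.18, and the 2 that passed, named as such after the test, were *Dnajc3* and *Acnat2*, a liver acyltransferase (0.36, adjusted p = 0.0324, edgeR). Over all tested genes with a window, 748 were higher and 720 lower of 10357. Leaving out *Hspa5* itself, the median r with *Hspa5* over these genes was 0.63 in A226Y and 0.50 in WT, and over the 13 it was 0.19 and 0.27.

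Of 12 fasting genes 2 passed as higher (median log2 fold change 0.57), beside 7.27% of all genes, and of 11 genes of the fed state 6 passed as lower (median −0.61), beside 7.03%. The other 10 and 5 did not pass. With 1 mouse left out at a time, 1 (without WT mouse 13, 14 or 24) to 5 (without A226Y mouse 29 or WT mouse 6) fasting genes were higher and 5 to 7 fed genes lower. The summed fasting genes ran from 13600 to 24600 CPM in A226Y and from 8590 to 17900 CPM in WT. Among cell type markers, 1 of 9 Kupffer cell genes was lower (*Clec4f*, named after its value was seen, log2 fold change −0.65, adjusted p = 0.0261), 2 of 14 plasma and B cell genes were lower, and of 10 stellate cell genes 1 was higher and 3 lower. Of 11 hepatocyte genes 2 were higher and 1 lower, but only 1 was higher in 8 and none lower in 13 of the 18 fits with 1 mouse left out, while no endothelial, cholangiocyte, erythroid or acinar gene passed (10, 7, 5 and 2 tested, edgeR, with 2, 1, 0 and 0 at an unadjusted p under 0.05). The plasma and B cell calls, named after their values were seen, were *Iglc1* and *Iglc2*, light chain constant genes whose WT medians were 1.33 and 1.10 CPM and whose highest WT livers reached 19.0 and 45.6 CPM (exact permutation p = 0.0798 and 0.118). Both lost their calls without WT mouse 13 (adjusted p = 0.0727 and 0.443), and *Iglc1* also without WT mouse 33 (adjusted p = 0.0795, edgeR). *Clec4f* lost its call without WT mouse 14 (adjusted p = 0.0577), whereas without A226Y mouse 29, 6 of the 9 Kupffer cell genes were lower (edgeR). Of 17 acute phase genes 1 was lower, or 7 without A226Y mouse 29. Over all genes the number called also changed with a mouse left out, from 1255 to 2560. The 7.03% of the full fit is thus not the share for the counts without mouse 29. Of 4 clock genes of the *Arntl* phase 1 was higher, and of 10 of the *Dbp* and *Per* phase none passed (edgeR, 3 at an unadjusted p under 0.05). Over all genes 29.6% had an unadjusted p under 0.05, and the unadjusted counts given here were near or below that share. The summed Kupffer cell genes ran from 339 to 1260 CPM in A226Y, with mouse 29 highest, and from 504 to 1040 CPM in WT. Beyond the correlations with *Hspa5* given above, the part of the acute phase, feeding state, clock phase and cell composition in the chaperone levels was not tested.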

How the data were processed

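Each file the authors deposited holds 1 liver's unnormalized whole-number read counts per Ensembl gene. The methods name RSEM and single-end reads, while the submitters' processing notes name STAR and featureCounts with GRCm38, so the counting step is uncertain. Whether strand was used is not given in the sources used here. Genes reaching 10 counts in 50% or more of the livers of one genotype were kept, scaled with TMM and compared with edgeR 4.0.16 (R 4.3.3; quasi-likelihood test, no covariates, Benjamini-Hochberg over 13353 genes). The SE is the log2 fold change over the square root of F. Correlations used log2 CPM with a prior count of 2. Permutation tests are two-sided. Counts in all livers were deep enough that the spread between mice sets the precision. No 2 livers of a genotype agreed within sampling noise. GENCODE M21 (GRCm38) gave symbols to 22214 of 22524 identifiers, and RefSeq promoter windows were at hand for 9 of the 10 genes. The scripts were tested on simulated data.

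The 10 genes and all lists were chosen with earlier results of these data known. Named genes are the 10, *Rps2*, 6 UPR genes, up to 4 called genes per ER list with the smallest p, and the 10 genes most like *Hspa5*, of which 2 are not reported here. Other genes were named after their values were seen. Alternatives were DESeq2 1.42.0, limma-voom 3.58.1, other scalings and filters, 4 surrogate variables (sva 3.50.0), length and GC offsets, Spearman's rho, a prior count of 0.5 and leaving out each mouse. Leaving out A226Y mouse 29 and WT mouse 33 together, list counts with each mouse left out, following the called list genes, and the test of a difference between correlations were chosen after seeing the data.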

Additional observations from a re-analysis of the deposited data

Results flagged for a closer look

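Within a genotype, a liver was set aside as far from the others where its gap to the next liver took up more of the range than chance usually gives. This was so in 10 of 82 groups of values checked, and chance gives about 5% of such groups. A226Y mouse 29 had the highest sum of acute phase genes (65900 CPM) and of clock genes of the *Arntl* phase (117 CPM), and the lowest sum of hepatocyte genes (112000 CPM) and of clock genes of the *Dbp* and *Per* phase (501 CPM). The highest A226Y livers for *Sil1* (54.5 CPM, mouse 18) and *Ufd1* (54.2 CPM, mouse 23) also stood apart. In WT, mouse 33 was far from the others for summed erythroid genes (764 CPM), *Dnajc10* (34.4 CPM, highest) and *Rnf5* (50.1 CPM, lowest), and mouse 4 had the lowest sum of endothelial genes (397 CPM). None of the 10 chaperone genes had such a liver in either genotype.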

How the results depend on the processing

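The count of 0 chaperone genes that passed between genotypes held in all 29 alternative fits (290 values), where the median of their log2 fold changes stayed between 0.17 and 0.28. Over all genes, 248 passed with surrogate variables and between 1255 (without WT mouse 14) and 2560 with a mouse left out. DESeq2 passed 2418. Without TMM (library size only) 67.9% of calls were higher in A226Y, against 50.8%, and the median of all genes moved by 0.039 on the log2 scale. In that setting 1 co-factor gene fell, 2 redox genes rose, 0 glycan, 0 degradation and 0 hepatocyte genes fell, 1 endothelial and 1 clock gene of the *Dbp* and *Per* phase rose, 4 genes with the ERSE rose, and 6 chaperone genes passed with *Hspa5* in A226Y. With Spearman's rho that number was 1 and the median over pairs 0.81, and with a mouse left out the number was 0 to 3. The log2 fold change of *Canx* changed sign with library size only (0.01), with surrogate variables (0.04) and without WT mouse 14 (0.01; −0.05 to 0.01 over all mice left out). Its r with *Hspa5* in A226Y did so without mouse 3 (−0.02 to 0.45 over all mice left out), and with library size only the difference in spread became 0.021 for *Pdia6* and 0.0 for *P4hb*. With a mouse left out the sign of that difference also turned for *Calr* (−0.048 to 0.074), *Canx* (−0.025 to 0.021), *Pdia3* (−0.019 to 0.069), *Pdia4* (−0.087 to 0.006), *Pdia6* (−0.038 to 0.051) and *P4hb* (−0.045 to 0.002). Of the 19 called list genes, *Sdf2* lost its call in 18, *Trib3* in 16 and *Serpinh1* in 14 of the 29 fits, and none changed sign. The cause of these changes was not tested. No paired analysis was made because the labels used here give no pairing of livers between the genotypes. Counts of this depth do not limit the chaperone genes, but 10 and 8 livers leave intervals that reach a log2 fold change of 0.56 for *Hspa5* and 1.10 for *Sdf2l1*.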
